A study of Mus musculus with 16 samples.

Results

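A set of 177 array probes whose signal fades as the wild-type mouse testis matures, and which stay brighter in Emi2 knockout testis at the oldest age, was examined out of 25689 regular probes. RNA from whole testis of C57BL/6 mice had been hybridised to Illumina arrays, which report how brightly the beads carrying each probe fluoresce. There were 8 groups of 2 arrays, 16 in all: wild type and EMI2_ko (Emi2 knockout) at postnatal days 15, 21, 30 and 60, called P15, P21, P30 and P60. All groups share the strain, and the labels name no transgene, no treatment and no pooling. The protocol text gives a youngest age that differs from the P15 of the titles and age labels, which was used here. Whether the paired arrays of a group stem from different mice is not stated, and every p-value below therefore reflects array-to-array spread that may be technical.

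The testis changes its cellular makeup during the ages sampled. In the juvenile testis Sertoli cells, interstitial cells, spermatogonia and early meiotic spermatocytes make up most of the tissue, and each later germ cell stage of the first wave of spermatogenesis is added on top of them. A transcript of the early residents can thus come to make up less of the total RNA without any cell changing its expression. In whole tissue, fewer cells of a type and less RNA per cell cannot be told apart. Emi2 is an F-box protein that blocks the anaphase-promoting complex, a ubiquitin ligase needed to complete a division, and it is best known for holding the mature egg in meiosis.

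The members were chosen on the deposited log2 values, by the mean of the 2 arrays of each group. A member had a P15 wild-type mean at least 2 above the P60 wild-type mean and a P21 wild-type mean less than 0.7 above P15. Its P60 knockout mean was at least 1 above P60 wild type and not above the highest wild-type mean. In the deposited values 559 regular probes met the conditions on wild type, and 177 of them met all conditions. A further 117 had a P60 knockout mean less than 0.5 above wild type and are called here the probes that faded alike, and the other 265 lay in between. The highest wild-type mean was that of P15 in all 177 members, so the P30 arrays of both genotypes and the P15 and P21 knockout arrays did not take part in the choice.

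Close to the limits, ILMN_2485197 and ILMN_2993843 fell by 2.01 in wild type in the deposited log2 values, and ILMN_2761422 and ILMN_1244651, which fell by 1.996 and 1.98, were left outside. ILMN_1231885 and ILMN_2624569 were inside with P60 genotype differences of 1.004 and 1.01, and ILMN_2669569 and ILMN_1243257 outside with 0.98. The other limits cut nothing off. The P21 wild-type mean was closest to P15 in ILMN_1235717, where it lay 0.08 below, and no probe met the other conditions with P60 knockout above the highest wild-type mean.

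No gene is named. Ribosomal protein transcripts are abundant in any cell, yet only 31 of the 65 probes annotated for them (47.7%) passed detection on both P60 wild-type arrays, a share no higher than the 47.8% of regular probes overall. The annotated names thus do not go with the levels, tissue markers could not be read from them, and the targeted gene could not be used to check the genotype labels. Probe identifiers serve as row labels only. All values below, except where deposited values are named, are log2 signals after background correction with an added offset of 16 and quantile normalization. Levels of different probes are not comparable as amounts of RNA.

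The members were bright probes. The median P15 wild-type level over the 177 was 11.88, above 94.8% of the 17355 tested probes, and single members ranged from 9.20 to 14.66. All 177 were tested, 173 were detected on all 16 arrays, and none was undetected on both arrays of any group. Single arrays detected 13167 to 14630 regular probes, and the correlation between replicates over probes ran from 0.973 to 0.988.

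The course of the set is best seen in its median on each array. In wild type it was 11.95 and 11.87 on the P15 arrays, 10.31 and 10.90 at P21, 9.91 and 9.40 at P30, and 9.19 and 9.09 at P60. In knockout it was 11.92 and 11.90 at P15, 10.55 and 11.14 at P21, 10.30 and 10.66 at P30, and 10.52 and 10.58 at P60. The genotypes lay together at P15 and interleaved at P21, and at P30 the lower knockout array was above the higher wild-type array. At P60 they lay further apart, as the choice of members required. The P60 knockout mean was below the P15 knockout mean in all 177 members, by a median of 1.22, which is a description, since the rule kept the P60 knockout mean from exceeding the highest wild-type mean.

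In wild type the fall was early and then slowed. These steps use groups that chose the members and are given as a description. The median member change was -1.27 from P15 to P21, -0.87 from P21 to P30 and -0.49 from P30 to P60. Of the total fall from P15 to P60, a median of 47.7% had taken place by P21 (quartiles 40.8% and 54.6%) and 80.9% by P30 (quartiles 76.2% and 84.4%).

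The greatest wild-type falls in the deposited values belonged to ILMN_2693124, ILMN_2442967, ILMN_2820314 and ILMN_2926257, at 3.98, 3.95, 3.83 and 3.73. ILMN_2693124 had wild-type log2 signals of 12.52 and 12.44 at P15, 9.61 and 10.13 at P21, 8.92 and 8.39 at P30, and 7.73 and 8.08 at P60. Its knockout signals were 12.47 and 12.59, then 10.04 and 10.77, then 9.03 and 9.59, and at P60 9.48 and 9.32. Both genotypes of this probe had lower means at P21 and again at P30, and after P30 the mean went lower in wild type only.

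The brightest members at P15 followed the same course at a higher level. ILMN_2512191 had wild-type signals of 14.69 and 14.64 at P15 and 12.32 and 12.20 at P60, and knockout signals of 14.59 and 14.47 at P15 and 13.66 and 13.53 at P60. ILMN_2693850, ILMN_1248750 and ILMN_2758896 fell by 2.36, 2.59 and 2.73 in wild type in the deposited values, with P60 genotype differences of 1.19, 1.31 and 1.31. The rule chose on these falls and differences, which are given to show the levels at which the brightest members lay.

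The question of whether these probes fade in the knockout could be tested, since no P15, P21 or P30 knockout array had chosen them. They did fade. From P15 to P21, 133 of 177 members fell in knockout and 0 rose (limma, adjusted p under 0.05), where 18.0% of all tested probes fell and 13.3% rose. The median change was -1.09 over members and -0.11 over all tested probes, and 176 of 177 members had a lower mean at P21. The other probes picked for a wild-type fall fell more often. These were 110 of the 117 that faded alike (94.0%) and 228 of the 265 in between (86.0%), against 75.1% of members. An early knockout fall beyond that of all tested probes is thus not particular to the members. The count rested in part on single arrays, as it was 29 without P21 knockout replicate 1, where 6.13% of tested probes fell. It was 66 and 76 without P15 knockout replicates 1 and 2, where 9.47% and 10.8% of tested probes fell. The median change kept its direction, at -0.76 and -1.48 without P21 knockout replicates 1 and 2.

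By P30, 167 of 177 members were below their P15 knockout level and 0 above (limma), against 27.3% and 19% of tested probes. The median change was -1.45, a fall of 2.74-fold, where all tested probes had a median of -0.12. Both P30 knockout arrays were below both P15 knockout arrays in 174 members, against 42.5% of tested probes. Among the probes that faded alike all 117 fell, with a median of -2.39. The knockout steps share arrays, so their counts are not independent of each other.

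Between P21 and P30 no single change could be called. Over this step 0 members passed the limma test in either direction, with 30 at an unadjusted p under 0.05, and 0.346% of tested probes fell and 0.674% rose. The median member change was -0.41, and 156 of 177 had a lower mean at P30. Without P21 knockout replicate 1, 6 members and 1.39% of tested probes fell, with a median member change of -0.73, and without P21 knockout replicate 2 the median was -0.095. Without P30 knockout replicate 2, 2 members and 0.173% of tested probes fell. How much of the knockout fall came after P21 is therefore poorly fixed by these arrays. Of the P15 to P30 fall in knockout, a median of 71.9% was present at P21. The P60 knockout mean, which chose the members, was above the P30 knockout mean in 142 of 177.

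The steepest knockout falls to P30 were in ILMN_2679094, ILMN_2693124, ILMN_1242173 and ILMN_2743155. ILMN_2743155 had knockout signals of 12.20 and 11.89 at P15, 8.16 and 9.46 at P21, 8.58 and 9.35 at P30, and 9.99 and 9.95 at P60. Its change to P30 was -3.08 ± 0.38 (SE, n = 2 arrays each; limma adjusted p = 2.18e-05). All of that fall was present at P21, and the P60 knockout arrays were again above all P21 and P30 knockout arrays. ILMN_2693124 changed by -3.23 ± 0.30 (SE, n = 2 each; limma adjusted p = 1.46e-06). Each SE here and below comes from the model of all 16 arrays, not from the compared arrays alone.

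At the other end, 10 members did not pass the test of a knockout fall to P30. ILMN_1235717 changed by -0.01 ± 0.23 (SE, n = 2 each; limma adjusted p = 0.984). Its knockout signals were 13.23 and 13.40 at P15, 13.60 and 13.57 at P21, 13.22 and 13.39 at P30, and 13.16 and 13.34 at P60, while its wild-type signals went from 13.35 and 13.44 at P15 and 13.28 and 13.33 at P21 to 11.92 and 11.20 at P30 and 10.74 and 10.73 at P60. The 8 knockout arrays of this probe lay between 13.16 and 13.60, and the wild type was first below all 8 without overlap at P30. At P21 both knockout arrays were already above both wild-type arrays, but the difference of 0.28 did not pass (limma adjusted p = 0.624).

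ILMN_3162277 was similar, with knockout signals of 12.80 and 12.81 at P15 and 12.59 and 12.44 at P60, and a change to P30 of -0.28 ± 0.25 (SE, n = 2 each; limma adjusted p = 0.39). ILMN_2646771 had a change of -0.51 ± 0.36 (SE, n = 2 each; limma adjusted p = 0.266). ILMN_1254634 had the next smallest change, -0.60 ± 0.23 (SE, n = 2 each; limma adjusted p = 0.0457), and passed. Others of the 10 had larger mean changes with a wide spread, such as ILMN_2907878, named after its values were seen, at -2.62 ± 1.31 (SE, n = 2 each; limma adjusted p = 0.12).

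The comparison of genotypes at P30 used arrays that had not chosen the members. Members were higher in knockout: 45 of 177 (25.4%) passed the limma test as higher and 0 as lower, where 13.1% of all tested probes were higher and 10.4% lower. The median member difference was 0.63 (quartiles 0.51 and 0.89), a ratio of 1.55, and 175 of 177 were above 0. The median over all tested probes was itself 0.26, so the members stood 0.37 above it. Both knockout arrays were above both wild-type arrays in 120 members (67.8%), against 44.2% of tested probes, and below in 0, against 19.4%.

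That count depended on the arrays. It was 13 without P30 wild type replicate 2, where 4.34% of tested probes were higher. It was 22 without P30 knockout replicate 2, where 7.25% were, and 21 when only the 4 P30 arrays were fitted, where 5.60% were. The share of all tested probes thus went down along with the member count. Without P30 knockout replicate 2, ILMN_2854497 and ILMN_1242173 passed as lower, as did 8.48% of tested probes. The median difference stayed above 0 in each of these, between 0.38 and 0.93 over all single arrays left out. The shift of all tested probes was 0.20 with 75th percentile scaling and 0.12 with the deposited log2 values, where the member medians were 0.69 and 0.57.

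The same P30 arrays gave lower values for the other fading probes. Among the 117 that faded alike, 4 (3.42%) passed as higher and 0 as lower by limma, and the median difference was 0.26, equal to that of all tested probes to 2 decimals. Of the 265 in between, 22 (8.30%) were higher and 0 lower, with a median of 0.45. These sets were parted by the genotype difference at P60, and their order at P30 was the same. No test of the difference between the sets was made.

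The 45 members called at P30 had differences from 0.69 to 2.54, with a median of 1.06. In all 45 both knockout arrays were above both wild-type arrays, against 44.2% of all tested probes, called or not. The call itself favours such a separation. They were less bright at P15 than the 132 not called (median 11.18 against 12.14), and had a similar fall in wild type to P30 (median change -2.24 against -2.08). How far the background correction, which alters dim signals most, has a part in the lower brightness of the called members was not tested. Their median knockout change by P30 was -1.27 against -1.52, which the call at P30 itself favours. Of the 45, 40 had also fallen in knockout from P15 to P30 and 5 had not passed that test.

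On the background-corrected scale the greatest difference among the called members was in ILMN_2443102. Its wild-type signals were 9.84 and 9.98 at P15, 6.38 and 7.55 at P21, 6.02 and 5.41 at P30, and 5.23 and 5.44 at P60, where it was detected on 1 of 2 arrays. Its knockout signals were 10.32 and 9.39, then 6.72 and 7.86, then 7.97 and 8.53, and at P60 9.42 and 9.20. The genotypes overlapped at P15 and P21 and were separate at P30 and P60. At P30 the difference was 2.54 ± 0.43 (SE, n = 2 each; limma adjusted p = 0.000653). The order depended on the scale. In the deposited values the P30 means of ILMN_1235717 were 13.33 in knockout and 11.62 in wild type. Those of ILMN_2443102 were closer together, at 8.76 and 7.50. In the knockout the mean of this probe was lowest at P21 and higher at P30 and P60, and the P60 arrays lay close to the lower P15 array.

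ILMN_2667234 had the same shape. Its wild-type signals fell from 10.36 and 9.97 at P15 to 7.13 and 6.77 at P30 and 6.81 and 6.23 at P60. Its knockout signals were 10.79 and 10.14 at P15, 8.55 and 9.31 at P21, 8.67 and 9.58 at P30, and 10.25 and 9.89 at P60. The P30 difference was 2.17 ± 0.39 (SE, n = 2 each; limma adjusted p = 0.000898). Here the P60 knockout lay above P60 wild type by 96.8% of the wild-type fall in the deposited values, the highest share among the members.

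The remaining 6 of the 8 with the greatest P30 difference varied in their knockout change. Knockout means of ILMN_3000369 and ILMN_1224802 were lower at P21 than at P15. The changes were -1.41 ± 0.36 and -2.43 ± 0.32 (SE, n = 2 each; limma adjusted p = 0.00961 and 8.62e-05). The P30 differences of the same probes were 1.83 and 1.63. ILMN_1235717 and ILMN_3162277, which did not pass a fall in knockout, differed by 1.75 ± 0.23 and 1.47 ± 0.25 (SE, n = 2 each; limma adjusted p = 5.93e-05 and 0.000628). ILMN_1246104, which had also fallen in knockout by P21 (-1.30 ± 0.36, SE, n = 2 each; limma adjusted p = 0.014), differed by 1.56, and ILMN_3047987 by 1.51. Without P30 knockout replicate 1, ILMN_1246104 had a difference of 1.04 and no longer passed (limma adjusted p = 0.0849).

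The smallest P30 differences were in ILMN_2854497, ILMN_1242173, ILMN_1223546 and ILMN_1217275. ILMN_2854497 had P30 signals of 9.19 and 8.95 in wild type and 7.15 and 10.16 in knockout, a difference of -0.41 ± 0.68 (SE, n = 2 each; limma adjusted p = 0.691). ILMN_1242173 had 7.37 and 7.54 in wild type and 5.87 and 8.996 in knockout. In both, knockout replicate 1 was the low array and the knockout arrays lay on either side of the wild type. ILMN_1217275 had 8.95 and 8.56 in wild type and 8.92 and 8.76 in knockout, so at P30 its genotypes overlapped, and at P60 it had 7.36 and 6.80 against 8.98 and 8.47. This probe also had overlapping genotypes at P21. At P15 its knockout arrays, 11.04 and 10.78, were both above its wild-type arrays, 10.49 and 10.48.

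At P21 and P15 the wild-type arrays had taken part in the choice, and the values are a description. At P15, 0 of 177 members passed in either direction, where 0.0115% of tested probes were higher and 0.00% lower, and the median difference was 0.00. At P21, 1 member was higher and 0 lower (limma), where 0.841% of tested probes were higher and 4.29% lower. That member, ILMN_2667614, was named after its values were seen and differed by 0.82 ± 0.22 (SE, n = 2 each; limma adjusted p = 0.0427). The median at P21 was 0.20 against 0.11 over all tested probes, and 0.19 over the probes that faded alike. The knockout arrays were above both wild-type arrays in 32 members (18.1%), against 26.5% of tested probes, and below both in 0, against 15.2%. The knockout mean was the higher in 147 of 177 members and in 10720 of the 17355 tested probes.

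At P60, where the difference chose the members, 175 of 177 were called higher and 28.4% of tested probes were. The median difference was 1.42, a ratio of 2.67. ILMN_2679094 and ILMN_2907878 were not called. The P60 genotype difference as a share of the wild-type fall, called the share kept, had a median of 51.1% in the deposited values. It ranged from 28.2% in ILMN_2693124 to 96.8%. It was over 50% in 97 members and over 75% in 7. Besides ILMN_2667234 and ILMN_1235717, the P60 knockout came closest to P15 wild type in ILMN_3162277 and ILMN_2485197, with shares of 84.7% and 75.3%. The lowest shares after ILMN_2693124 were 29.3% in ILMN_2442967, 33.4% in ILMN_2760430 and 33.5% in ILMN_2622605. Held up thus meant about midway between the wild-type levels of P15 and P60 for most members. The rule set minimum values for both the P60 difference and the wild-type fall, at 1 and 2. The deposited medians lay close above them, at 1.22 and 2.35, so a share near 50% follows largely from those limits.

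Across the 177 members the P30 and P60 genotype differences had a Pearson r of 0.514 and a Spearman rho of 0.43, as a description over probes that share the same arrays. The P30 difference and the mean level had r of -0.366 and rho of -0.399 on the background-corrected scale, and the part of that scale in this was not tested. The changes from P15 to P30 in knockout and in wild type had r of 0.68 and rho of 0.632. Probes that fell further in wild type thus also tended to fall further in knockout on the background-corrected scale. How far that scale has a part in this was not tested.

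Set against wild-type ages, the knockout of P30 and P60 lay near P21. The P30 knockout mean was a median of 0.20 below the P21 wild-type mean and was between the P30 and P21 wild-type means in 134 of 177 members, above the P21 mean in 41 and below the P30 mean in 2. The P60 knockout mean was a median of 0.02 above the P21 wild-type mean. P21 wild type and P60 knockout took part in the choice, so these positions are a description.

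The members also moved together between replicate arrays of a group, which the choice did not use. At P21 replicate 2 was higher than replicate 1 in 97.2% of members in wild type and 94.4% in knockout, where 49.8% and 50.6% of tested probes were. The median differences of replicate 1 minus replicate 2 were -0.53 and -0.70. At P30 replicate 1 was the higher wild-type array in 94.9% of members (55.8% of tested probes), and replicate 2 the higher knockout array in 86.4% (47.7%). At P15 and P60 the median gap was at most 0.18. The probes that faded alike had medians of -0.39 and -0.58 at P21, 0.49 in P30 wild type and -0.07 in P30 knockout. The P30 genotype difference of the members therefore rests on a spread between replicates (median gaps of 0.56 and -0.39) of nearly the same size as the difference itself, and the part of this common movement in the result was not tested.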

How the data were processed

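Whole-testis RNA was measured on 16 Illumina arrays. One deposited table gives non-normalized probe intensity values, per the file headers, each followed by a detection p-value. In regular probes this deposited p-value column rises with signal, so it was read as 1 minus p. A second table holds log2 values deposited by the authors. Quantile normalization of all 26511 rows of intensities returned them to within 0.00276, so the scale is known and no gene was centred. Per the submitters' processing notes limma was used, with no version given.

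Members were found in the deposited log2 values after 822 control rows were dropped. For the tests, intensities of the 25689 regular probes were corrected with the normexp model from the detection p-values, an offset of 16 was added, and log2 values were quantile normalized. Tests covered the 17355 probes that 2 or more arrays detected (p under 0.05), with no selection by gene symbol. A linear model with 8 group means was run in limma 3.58.1 (R 4.3.3; 8 residual and 5.81 prior degrees of freedom), and p-values were adjusted over all tested probes by the Benjamini-Hochberg method. The number of arrays limits the precision. Each SE uses a variance fitted over all 16 arrays, so a probe has the same SE in every comparison. The n beside it counts the arrays of each group compared. The median SD over members was 0.37 and 0.50 in P21 wild type and knockout, and 0.40 and 0.31 at P30. It was 0.07 and 0.11 at P15, and 0.18 and 0.11 at P60. The p-values at P21 and P30 thus draw in part on the smaller spread at P15 and P60.

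The members, the comparison sets and the tests were chosen with earlier results of these data known. Named probes are the members with the greatest P30 difference among those called without overlap (8), and by 4 each the smallest P30 difference, the brightest at P15, the greatest wild-type fall, the greatest and smallest knockout change, the P60 knockout closest to P15 wild type and the lowest share kept, and those next to each limit. Probe sequences were not used here. Gene symbols served only the check on ribosomal protein probes and the alternative with 1 probe per symbol. Alternatives were the deposited values, background from the control rows, 75th percentile scaling, other filters, 1 probe per symbol, only the 4 arrays compared, a replicate block and each array left out.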

Additional observations from a re-analysis of the deposited data

How the results depend on the processing

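The direction of the member medians was the same under every alternative run for the P30 genotype difference and the 3 knockout steps, but counts of calls moved. With only the 4 arrays compared, 21 members were higher at P30, where 5.60% of tested probes were. With 75th percentile scaling the median knockout change from P15 to P30 was -1.19. Leaving out each array in turn, members higher at P30 ranged from 13 to 66, members lower from 0 to 2 and the median difference from 0.38 to 0.93. For knockout P15 to P21 the count lower ranged from 29 to 150 and the median from -1.48 to -0.76, for P15 to P30 from 130 to 167 and from -1.72 to -1.25, and for P21 to P30 from 0 to 6 and from -0.73 to -0.095. The cause was not tested. The choice itself depended on the values used: applied to the background-corrected values the same rule kept 818 probes, among them all 177. In the deposited log2 values, a wild-type fall of at least 3 or a P60 difference of at least 1.5 kept 18 in each case.

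With the replicate block 57 members were higher at P30, and 144, 172 and 0 fell at the knockout steps P15 to P21, P15 to P30 and P21 to P30, within 1.5 times the main counts. In the same fits 17.3% of tested probes were higher at P30, and 20.8%, 29.04% and 0.83% fell at those steps. The labels state no pairing of the arrays by replicate number. Deviations of same-numbered arrays correlated by 0.0477 (P15), 0.478 (P21), 0.122 (P30) and 0.16 (P60). Same-numbered arrays thus moved together in part at P21 and less at the other ages, which does not settle whether they were paired.

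Of the 31 named probes, ILMN_1242173 turned from -0.02 to 0.18 at P30 with the deposited log2 values, and neither value passed. Arrays left out turned the P30 difference of ILMN_2854497 (-1.92 to 1.09), ILMN_1242173 (-1.59 to 1.54), ILMN_1223546 (-0.16 to 0.32), ILMN_1217275 (-0.11 to 0.28), ILMN_2679094 (-1.39 to 2.62), ILMN_1231885 (-0.017 to 0.75) and ILMN_2624569 (-0.016 to 0.95). None of these 7 passed with all arrays, while ILMN_1242173 passed as higher without P30 knockout replicate 1 (limma adjusted p = 0.0418) and as lower without replicate 2 (limma adjusted p = 0.0349). In the other alternatives for the named probes, 238 of 247 values kept their side of the threshold and their direction. ILMN_2512191 and ILMN_2646771 no longer passed with only the 4 arrays compared (limma adjusted p = 0.107 and 0.0574). ILMN_2993843 no longer passed with the deposited log2 values (limma adjusted p = 0.0542), while 5 values newly passed. With arrays left out, the differences of these probes and of ILMN_2743155 went down to 0.52, 0.89, 0.96 and 0.86.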

Other observations

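A pair of members had very different levels on the replicate arrays of several groups, and both were singled out after their values were seen. ILMN_2679094 had log2 signals of 4.81 and 12.22 on the P21 wild-type arrays and 4.77 and 11.07 on the P21 knockout arrays. At P30 it had 4.87 and 8.17 in wild type and 5.13 and 9.14 in knockout, so replicate 2 was the bright array in both genotypes at both ages. At P15 it was 11.51 and 9.46 in wild type and 12.32 and 11.53 in knockout, and at P60 6.34 and 4.61 in wild type and 10.12 and 4.81 in knockout, with replicate 1 the brighter. From P21 on, each group had 1 of 2 arrays that detected it. ILMN_2907878 had 6.53 and 11.09 in wild type and 7.18 and 10.78 in knockout at P21, and 6.99 and 8.44 against 7.11 and 9.09 at P30. Replicate 2 was again the bright array in each of these groups. Both met the rule through group means of arrays that differ this much, and their P60 genotype differences, 1.99 ± 2.40 and 2.59 ± 1.31 (SE, n = 2 each), did not pass (limma adjusted p = 0.532 and 0.128).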
